A study of Homo sapiens with 6 samples.

Results

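The family of miR-103 and miR-107 was examined in small RNA libraries of A549 cells, a human lung adenocarcinoma cell line. Its members were taken by name from the deposited table of miRNA values: hsa-miR-103a-3p and hsa-miR-107, the main strands, and hsa-miR-103a-2-5p, the opposite arm of one of the hairpins. These were 3 of 2588 miRNAs in the table. The groups were parental A549 cells (Ctrl, n = 3) and A549 cells in which the *MIR21* locus was deleted by CRISPR/Cas9 (*MIR21*-KO, n = 3). The knockout cells were grown from sorted single cells, so that they are a clonal model, and how many clones stand behind the 3 libraries is not given in the sources used here. No further treatment was named for either group, and total RNA was extracted with TRIzol from cells harvested 48 h after seeding. The labels of all 6 samples name Novogene for library preparation and sequencing, while the study's methods also name a kit and a sequencing group in Dresden for small RNA, without saying which samples went there. The methods state in general that experiments had biological replicates, but the labels do not say whether these libraries came from separate cultures, so p-values measure the spread between these libraries, which may be technical in part.

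MicroRNAs are short RNAs that guide Argonaute proteins to messenger RNAs, mostly by pairing through the seed, the bases near their 5′ end. miR-103 and miR-107 are made from hairpins that lie within introns of the pantothenate kinase genes, whose enzymes catalyze the first step of coenzyme A synthesis. They are known as regulators of insulin sensitivity and lipid metabolism and as repressors of *DICER1*, which encodes the enzyme that cuts miRNA hairpins.

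The mature sequences (RefSeq, GRCh38.p14) are shown first, because the values of miR-103a-3p and miR-107 rest on reads that the 2 share almost base for base. They run 5′ to 3′ with the seed, bases 2 to 8, in capitals, and 3 of 3 members were matched by name.
hsa-miR-103a-3p: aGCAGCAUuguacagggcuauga
hsa-miR-107: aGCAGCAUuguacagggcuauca
hsa-miR-103a-2-5p: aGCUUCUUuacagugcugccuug
miR-103a-3p and miR-107 were both 23 bases long, with 22 of 23 bases identical, and differed by G22C, counted from 1 at the 5′ end of miR-103a-3p. Their first 21 bases were therefore the same, and a read that ended before base 22 could not tell them apart. Of 2370 mature names in the reference, 2 held this seed, and these were the 2 members.

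The hairpins show where each mature strand comes from, with the annotated mature strands in capitals.
MIR103A1: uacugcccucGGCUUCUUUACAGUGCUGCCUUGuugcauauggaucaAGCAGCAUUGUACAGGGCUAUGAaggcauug
MIR103A2: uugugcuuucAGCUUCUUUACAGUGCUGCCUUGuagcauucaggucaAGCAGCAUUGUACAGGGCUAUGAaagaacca
MIR107: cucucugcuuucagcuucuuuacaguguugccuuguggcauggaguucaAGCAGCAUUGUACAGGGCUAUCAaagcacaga
*MIR103A1* lies at chr5:168560896-168560973 on the minus strand (GRCh38), in intron 5 of the 7-exon transcript of *PANK3*. *MIR103A2* lies at chr20:3917494-3917571 on the plus strand, in intron 5 of *PANK2*. *MIR107* lies at chr10:89592747-89592827 on the minus strand, in intron 5 of *PANK1*. Each hairpin ran in the direction of its host gene, and no annotated transcript of a host had an exon there. The 3p strand of *MIR103A1* and *MIR103A2* is the same molecule, so miR-103a-3p sums both loci. The 5p arms of these loci differ by G1A (from *MIR103A1* to *MIR103A2*, counted from 1 at the 5′ end), and miR-103a-2-5p is named for *MIR103A2*. It also differs by only C16U from the 5′ arm of the *MIR107* hairpin, with positions counted from 1 at the 5′ end of miR-103a-2-5p. How reads of such near-identical arms were assigned is not known, so its value cannot be tied to 1 locus. miR-103a-1-5p, the arm from *MIR103A1*, was not analysed here.

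The depth was 5577287 to 9768152 miRNA reads per library. miR-21-5p, read from the locus deleted in the knockout, took 65.5% to 69.4% of these reads in Ctrl and 0.0156% to 0.0254% in *MIR21*-KO. The 6 miRNAs followed as epithelial markers summed to values of 879 to 2171, mostly from miR-200b-3p, while miR-141-3p and miR-205-5p among them did not exceed 2.68 and 0.288. Of markers of other cell types, the mesenchymal list summed to 246 to 1230, liver miR-122-5p ran from 7.90 to 141, the muscle list from 5.93 to 71.1 and the blood list from 2.26 to 42.7, and the neuronal miR-124-3p did not exceed 0.811. Values are the TMM-scaled CPM of the deposited table. Principal component 1 of the 602 tested miRNAs outside the family and *MIR21* held 71.8% of the variance and parted the libraries across the groups, with Ctrl replicates 1 and 2 and *MIR21*-KO replicate 3 on one side (set A) and Ctrl replicate 3 and *MIR21*-KO replicates 1 and 2 on the other (set B). The labels name no batch, and these sets are a description of the data, not groups of the study.

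miR-103a-3p was the abundant member, and it was higher on average in *MIR21*-KO, but by less than the test could tell from the spread. In Ctrl its value was 2209, 2029 and 4663 in replicates 1 to 3. In *MIR21*-KO it was 6029.5, 6988 and 3420.4. Ctrl replicate 3 exceeded *MIR21*-KO replicate 3, so the groups overlapped, whereas every library of set B was above every library of set A. With condition held in the fit, 334 of the 607 miRNAs tested were higher in set B. How many of them parted fully between the sets was not counted. The Ctrl mean was 2967 ± 1472 and the *MIR21*-KO mean 5479 ± 1847 (SD, n = 3 each). The difference was 0.93 on the log2(value + 1) scale (SE 0.48, 95% interval -0.20 to 2.05), and limma's adjusted p was 0.538. None of the 3 members passed an adjusted p of 0.05 or, in the same fit, an unadjusted p of 0.05. Among all 607 miRNAs tested, 0.824% passed the first threshold and 11.2% the second. The values are relative to other miRNAs, so fewer cells that make a miRNA and less of it per cell cannot be told apart.

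miR-107, which has the seed of miR-103a-3p but another host gene, was far less abundant and varied more widely. Its value was 19.5, 21.9 and 251 in Ctrl replicates 1 to 3. It was 221, 217 and 36.5 in the *MIR21*-KO replicates. The highest of all 6 values was in Ctrl replicate 3 and the lowest in Ctrl replicate 1, so that the Ctrl libraries enclosed those of *MIR21*-KO. The log2 difference between *MIR21*-KO and Ctrl was 1.31 (SE 1.13, 95% interval -1.32 to 3.94; limma adjusted p = 0.717). It moved to 2.49 without Ctrl replicate 3, to 2.16 without *MIR21*-KO replicate 3, to 0.68 without Ctrl replicate 1 and to 0.76 without Ctrl replicate 2, and limma's adjusted p stayed at or above 0.132.

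miR-103a-2-5p, the passenger arm, lay near the limit of detection. The Ctrl libraries held 1, 4 and 23 of its reads (values of 0.267, 1.08 and 3.25) and the *MIR21*-KO libraries 39, 44 and 4 (values of 2.81, 3.17 and 0.520). A count of 0 would allow up to 3 reads, which were worth a value of 0.216 to 0.811 depending on the library, so Ctrl replicate 1 lay below that limit. The log2 difference was 0.37 (SE 0.58, 95% interval -0.97 to 1.71; limma adjusted p = 0.796), and it turned to -0.040 without Ctrl replicate 1. For every 10000 reads of the 3p strand there were 1.21, 5.33 and 6.96 reads of this arm in Ctrl, while *MIR21*-KO had 4.66, 4.54 and 1.52.

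**Figure D1:**
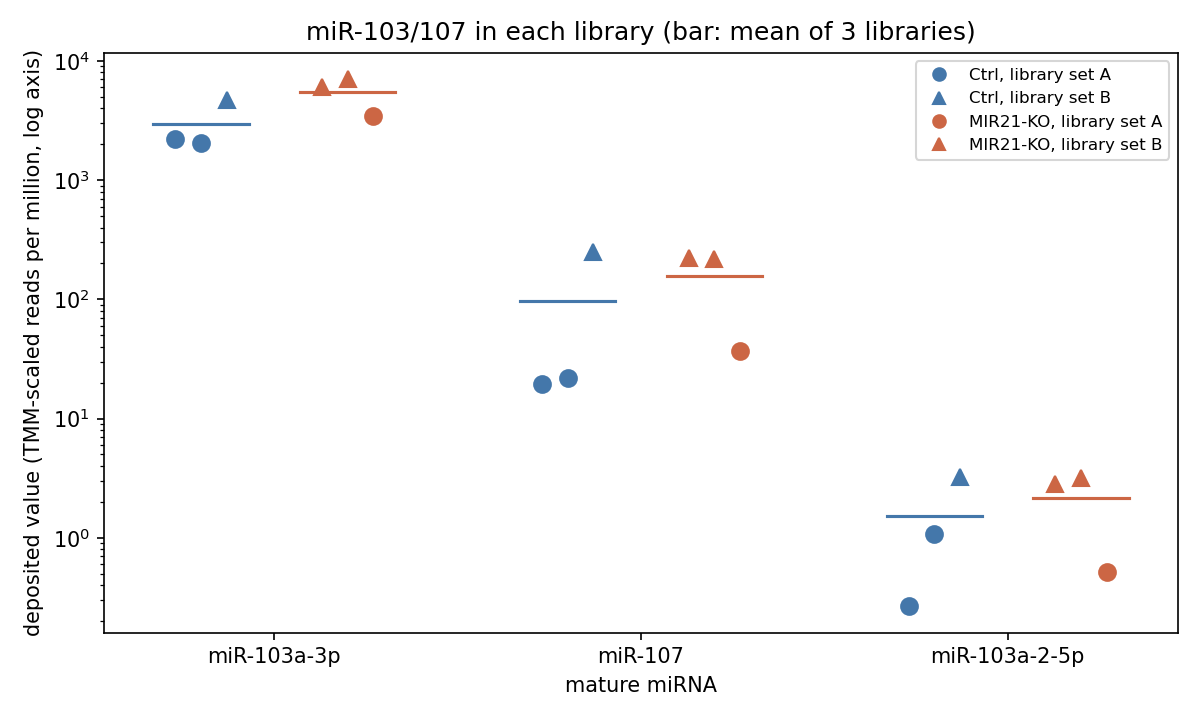
Value of each member in the 6 libraries (TMM-scaled CPM, log axis), by group, with different symbols for set A and set B and a line at each group mean. For all 3 members the groups overlap, and the 3 libraries of set B lie above the 3 of set A. The sets were read from other miRNAs of these same libraries. How many of all miRNAs tested part in this way was not counted.

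The abundance of the family within each library was read from reads alone. miR-103a-3p was 0.120%, 0.121% and 0.338% of miRNA reads in Ctrl, and it reached 0.965%, 1.34% and 0.472% in *MIR21*-KO. On this scale the groups did not overlap. How many of all miRNAs tested parted in the same way on it was not counted. The denominator differed between the groups, however, since miR-21 made up most reads of Ctrl. Among reads other than miR-21, both 3p strands together were 0.352%, 0.390% and 1.17% in Ctrl, beside 1.001%, 1.38% and 0.477% in *MIR21*-KO. Here the groups overlapped again, with means of 0.639% ± 0.464 and 0.952% ± 0.453 (SD, n = 3 each; two-sided exact permutation p = 0.5, where 0.1 is the smallest p the design allows). The difference of 0.31 percentage points ran from 0.10 without *MIR21*-KO replicate 2, 0.17 without Ctrl replicate 1 and 0.19 without Ctrl replicate 2 to 0.58 without Ctrl replicate 3 and 0.55 with *MIR21*-KO replicate 3 left out, and it was 0.11 within set A and 0.016 within set B. With each library scaled to its total, miR-103a-3p rose by 2.31 on the log2 scale (limma adjusted p = 0.0290). In that fit 32.3% of all miRNAs tested were called higher and the median of all miRNAs stood at 1.34, against 0.24 with the deposited scaling.

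Within each set of libraries miR-103a-3p was higher in *MIR21*-KO, miR-107 was higher in 1 set and lower in the other, and miR-103a-2-5p was slightly lower in both. The log2 difference between *MIR21*-KO and Ctrl was 0.69 within set A and 0.48 within set B for miR-103a-3p. For miR-107 it was 0.79 within set A and -0.20 within set B. For miR-103a-2-5p it was -0.095 and -0.091. Each of these rests on 1 or 2 libraries per arm and was not tested. With the set as a term in limma, the *MIR21*-KO difference of miR-103a-3p was 0.58 (SE 0.21, 95% interval 0.14 to 1.03; adjusted p = 0.0627), that of miR-107 was 0.30 (adjusted p = 0.531) and that of miR-103a-2-5p was -0.093 (adjusted p = 0.856). That fit called 18.1% of all miRNAs tested and none of the members, and the same term in edgeR called 13.8% and none of the members. The sets were read from these libraries, from miRNAs outside the family and *MIR21*. The term therefore takes out the main spread among those miRNAs by construction. The intervals and p-values of these fits are narrower and smaller than a division known beforehand would justify.

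**Figure D2:**
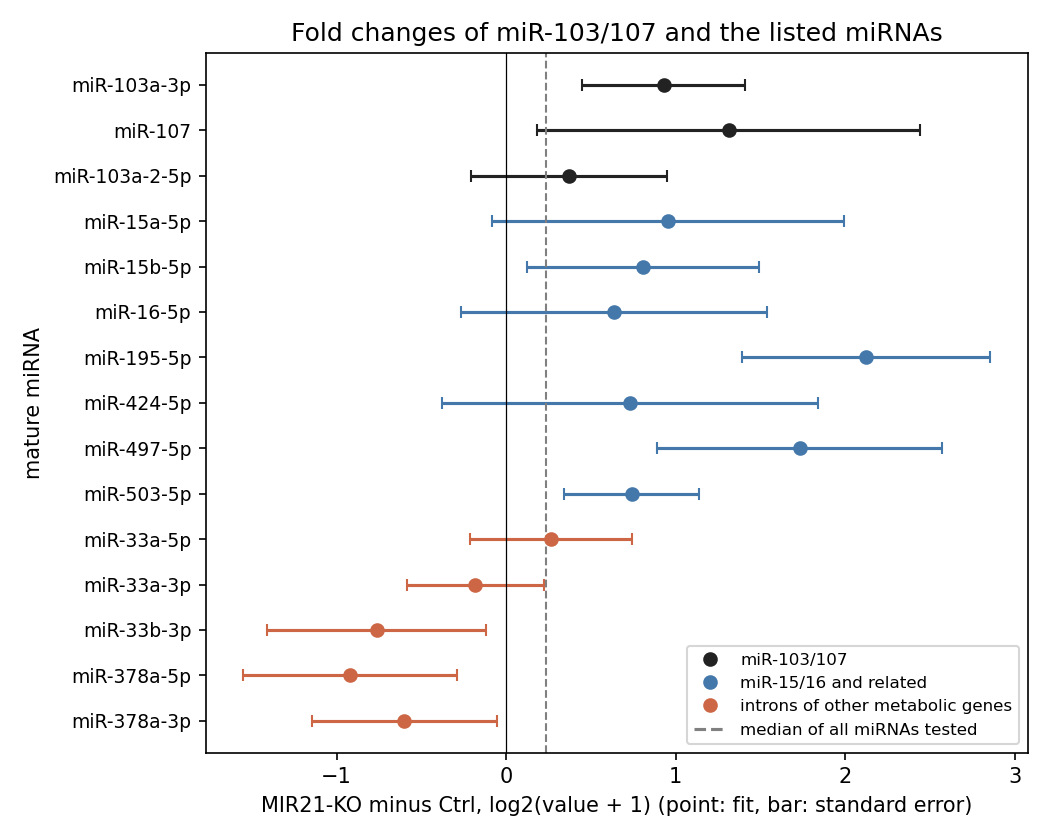
Log2 difference between *MIR21*-KO and Ctrl of each member with its 95% interval, from limma with condition alone and with the set of libraries as a term. Without the set term the 3 intervals include 0. With it the interval of miR-103a-3p lies above 0, and those of miR-107 and miR-103a-2-5p include 0. The intervals with the set term are narrower than those without it. The sets were read from other miRNAs of the same libraries, so these intervals are narrower than a division known beforehand would justify.

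The ratio of the 2 strands that share a seed differed more between the sets than between the groups. miR-103a-3p had 113, 92.7 and 18.6 times the reads of miR-107 in Ctrl replicates 1 to 3, and 27.3, 32.2 and 93.6 times in the *MIR21*-KO replicates. As a share of the reads of both, miR-107 was lowest in Ctrl replicate 1, at 0.875% (95% Wilson interval 0.696% to 1.10%), and highest in Ctrl replicate 3, at 5.11% (4.88% to 5.34%). The intervals cover counting error only, since reads were not identified by molecule. The other shares were 1.07% in Ctrl replicate 2 and 3.53%, 3.01% and 1.06% in the *MIR21*-KO replicates, and those of set A stayed near 1%. The log2 ratio averaged 5.86 ± 1.43 over Ctrl and 5.44 ± 0.97 over *MIR21*-KO (SD, n = 3 each; two-sided exact permutation p = 0.9). Its mean was 6.64 over set A and 4.66 over set B, given without a test because the sets were read from the same libraries.

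**Figure D3:**
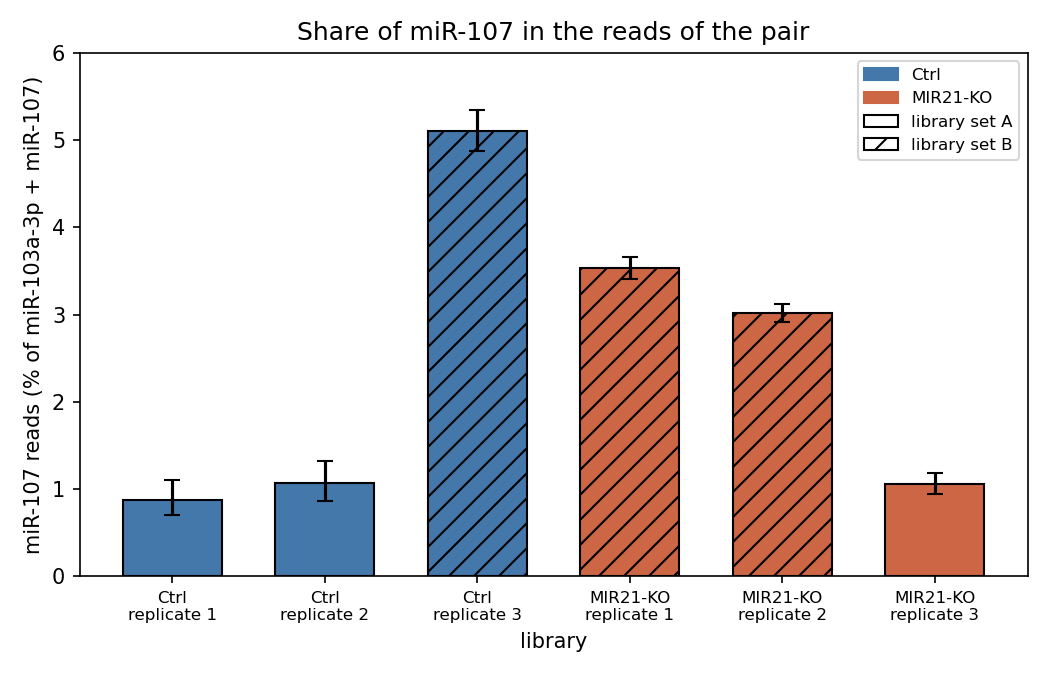
Reads of miR-107 as a percentage of the reads of miR-103a-3p and miR-107 together in each of the 6 libraries, with 95% Wilson intervals that cover counting error only. The 3 libraries of set A lie near 1% and the 3 of set B between 3.01% and 5.11%.

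Between the sets, with condition held in the fit, miR-107 was 3.05 higher in set B on the log2 scale (8.26-fold) and miR-103a-3p 1.03 higher (2.04-fold). The 332 miRNAs whose values averaged 10 or more were ordered by signed set difference (B minus A), from highest to lowest. In this order miR-107 took place 4 and miR-103a-3p place 108. The median set difference of these 332 miRNAs was 0.21. Pairs of mature miRNAs of equal length that differ by 1 base were then looked up, after the values of the family had been seen. The search covered 296 of these 332 miRNAs, those with a reference sequence. Among the 12 pairs found, miR-103a-3p and miR-107 had the widest gap in set difference, 2.01, followed by let-7a-5p and let-7f-5p at 1.25, with a median gap of 0.69. The part of library preparation, depth or read assignment in this gap was not tested.

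**Figure D4:**
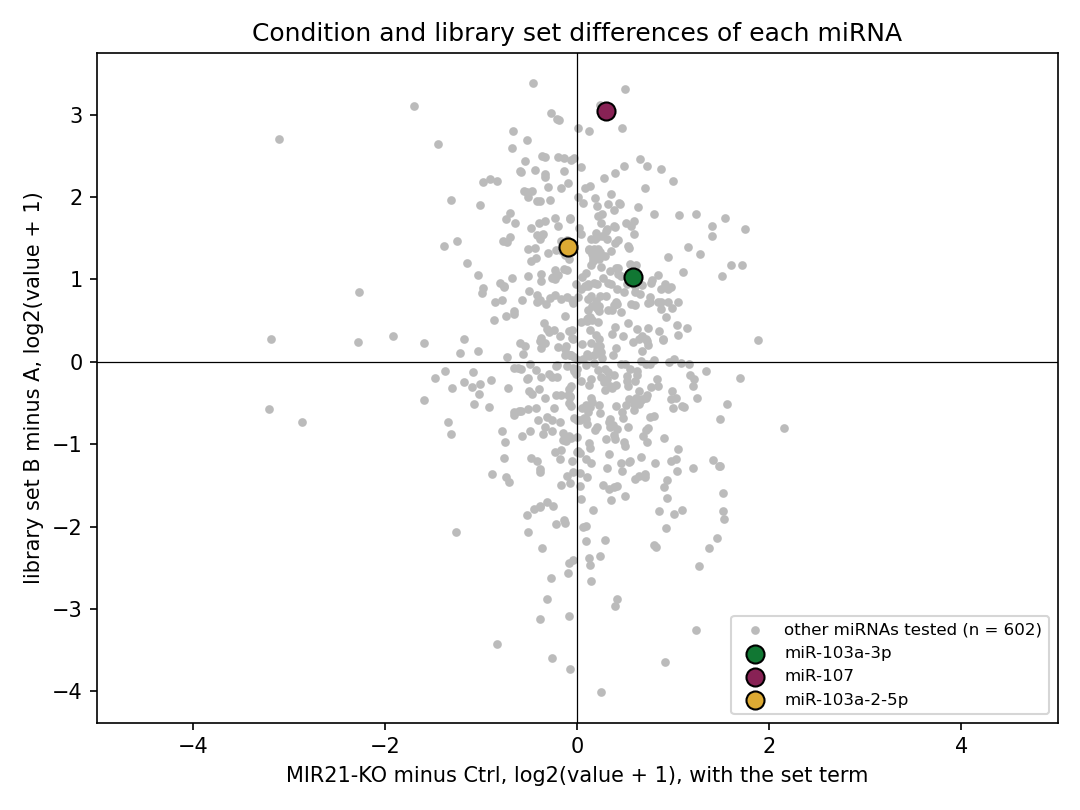
Difference between the sets (B minus A) against the difference between *MIR21*-KO and Ctrl with the set as a term, both on the log2 scale, for the 3 members and 602 other miRNAs tested (gray), with the 2 strands of miR-21 outside the axis. miR-107 lies near the top of the vertical axis, at 3.05, and close to 0 on the horizontal axis, at 0.30.

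miR-103a-3p was listed on 2 rows, as many as it has loci. The first row took 49.8% to 51.5% of its reads, and in 5 of 6 libraries the 95% Wilson interval of this share held 50%. Since the mature strand is identical from *MIR103A1* and *MIR103A2*, these rows do not measure the output of *PANK3* and *PANK2*. miR-103b, which is annotated on the opposite strand of the same loci, had 0 reads in every library.

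In the order of mean value over the 6 libraries, miR-103a-3p took place 25 of all miRNAs, at 4223 ± 2031 (SD, n = 6). Its neighbors were miR-222-3p at 4358 and let-7b-5p at 3838, and their ranges overlapped with its own. Within single libraries it took places 12 to 38. miR-107 took place 156 at 128 ± 112, between miR-493-5p at 135 and miR-615-3p at 127, again with overlapping ranges. That place describes no single library, since miR-107 took places 222 to 251 in set A and 118 to 127 in set B. In the same order of means miR-103a-2-5p took place 503 at 1.85. Across the 6 libraries, over the 164 miRNAs whose values averaged 100 or more, the log2 values most like those of miR-103a-3p were let-7a-5p (Pearson's r = 0.977), miR-34c-5p (0.973) and miR-125a-5p (0.970). For miR-107 they were miR-494-3p (0.997), miR-23a-3p (0.996) and miR-181a-5p (0.989). miR-103a-3p and miR-107 correlated at 0.936, which put miR-107 in place 17 of likeness to miR-103a-3p and miR-103a-3p in place 29 of likeness to miR-107. These are descriptions of 6 libraries that share the division into sets.

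The miR-15/16 group, known for repressing cell cycle genes, carries the hexamer AGCAGC, 1 base further from its 5′ end than miR-103a-3p and miR-107. A list of 9 such miRNAs was followed, of which 0 matched bases 2 to 7 of miR-103a-3p and 9 had the hexamer at this offset, shown here in capitals for the one with the highest mean value over the 6 libraries and for the one nearest to miR-107 in its set difference.
hsa-miR-16-5p: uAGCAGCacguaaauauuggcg
hsa-miR-424-5p: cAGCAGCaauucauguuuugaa
Of the 9, 7 passed the filter on low values and 0 were called by limma at an adjusted p of 0.05, by edgeR or by DESeq2. At an unadjusted p of 0.05 limma passed 1, miR-195-5p, whose log2 difference was 2.12 (adjusted p = 0.371). Their median log2 difference was 0.81, against 0.24 over all miRNAs tested. With the set as a term their median was 0.31, against 0.12 over all, and miR-16-5p and miR-424-5p stood at -0.14 and -0.27. In that fit 3 of the 7 were called, all higher: miR-195-5p at 1.54, miR-497-5p at 0.9996 and miR-503-5p at 0.84. It called 18.1% of all 607 miRNAs tested in either direction, 71 higher and 39 lower. Its p-values are smaller than a division known beforehand would justify. The mean value of miR-497-5p over the 6 libraries was only 8.27. miR-503-5p was the 1 member of the list with higher values in every *MIR21*-KO library, at 408, 439 and 551 against 296, 285 and 250 in Ctrl, a log2 difference of 0.74 (limma adjusted p = 0.565). Among all miRNAs tested, 9.56% were higher without overlap. The set difference was 3.01 for miR-424-5p, 2.83 for miR-15a-5p and 2.32 for miR-16-5p, beside 3.05 for miR-107, and -0.30 for miR-503-5p.

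A second list held 6 strands of miRNAs in introns of other metabolic genes: miR-33a in *SREBF2* and miR-33b in *SREBF1*, which encode regulators of sterol and fatty acid synthesis, and miR-378a in *PPARGC1B*, a coactivator of mitochondrial genes. Of these, 5 passed the filter and 0 were called by limma, by edgeR or by DESeq2, nor at an unadjusted p of 0.05 in limma. Their median log2 difference was -0.60, against 0.24 over all miRNAs tested. With the set as a term it was -0.42, against 0.12 over all. In that fit 2 were called, both lower: miR-33b-3p at -1.25 and miR-378a-5p at -1.39. It called 18.1% of all 607 miRNAs tested in either direction, 71 higher and 39 lower. Its p-values are smaller than a division known beforehand would justify. miR-378a-3p, the abundant member, had values of 2021, 2545 and 772 in Ctrl, against 831, 979 and 1399 in *MIR21*-KO. Its set difference was -1.09, higher in set A, whereas the other 4 tested strands were higher in set B like miR-107, by 0.73 to 1.47, among them miR-378a-5p from the same hairpin at 1.41. These 4 strands were scarce, with mean values of 1.66 to 9.08 over the 6 libraries, so their differences rest on few reads. The log2 difference of miR-378a-3p between *MIR21*-KO and Ctrl was -0.60 (limma adjusted p = 0.719).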

How the data were processed

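Total RNA of 3 Ctrl and 3 *MIR21*-KO samples of A549 was sequenced as small RNA. The submitters' processing notes name cutadapt 1.14, Bowtie2 2.3.2, SAMtools 1.5, featureCounts 1.5.3, edgeR 3.18.1 and the build hg38. How reads that map to several loci or to near-identical miRNAs were counted is not given in the sources used here, so the split between miR-103a-3p and miR-107 is uncertain to that extent. The authors deposited a signal per miRNA and library, which is the reads divided by 1 factor per library (TMM-scaled CPM). In each library 100% of the values came out as whole reads (tolerance 1e-06 reads). Their columns of fold changes, p-values and FDRs were not used.

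The 2813 rows were summed by name to 2588 miRNAs, 167 of them with several rows. Of these, 607 reached a value of 1 in 3 or more of the 6 libraries, and their log2(value + 1) was fitted with limma 3.58.1 in R 4.3.3 (moderated by eBayes with a mean trend, two-sided, Benjamini-Hochberg). edgeR 4.0.16 and DESeq2 1.42.0 were run on the recovered reads as alternatives. For ratios and shares a two-sided exact permutation test was used. The limma fit was also run on simulated counts that held no division into sets, so its behavior under such a division was not tested. Named miRNAs were the members, the 2 lists, the neighbors in order of mean value and the 3 miRNAs with the highest correlation. Members and lists were chosen with earlier results of these data known. Depth was 5577287 to 9768152 reads. Replicates differed by far more than sampling noise.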

Additional observations from a re-analysis of the deposited data

How the results depend on the processing

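The difference of miR-103a-3p was positive under 20 of 20 settings (0.58 to 2.31) and passed the threshold only with each library scaled to its total (2.31); without 1 library it ran from 0.71 to 1.31. With a replicate block it was 0.93 with a limma adjusted p of 0.950, and no call on a member changed. Same-numbered libraries did not deviate together (correlations of -0.79, -0.60 and -0.88). Since the libraries of each number lie in opposite sets, these correlations cannot tell whether the numbers pair the samples. miR-107 was positive under 20 of 20 settings (0.29 to 2.66), with no call. miR-103a-2-5p reversed to -0.093 once the set entered limma and to -0.18 once it entered edgeR, and without 1 library it ran from -0.040 (without Ctrl replicate 1) to 0.83; the cause was not tested. The log2 ratio of miR-103a-3p to miR-107 (-0.42) reversed to 0.67 within set B and ran from -1.24 to 0.068 without 1 library. In the miR-15/16 list 0 were called, but 2 with scaling to the total (both higher; 32.3% of all tested were), and with the set as a term 3 in limma and 2 in edgeR, all higher. In the list of other metabolic hosts 0 were called, but 2 in limma and 2 in edgeR with the set, all lower. Of all 607 miRNAs tested, these set fits called 18.1% in limma (71 higher, 39 lower) and 13.8% in edgeR (51 higher, 33 lower). The edgeR fit with the set was added after the values were seen. miR-103a-2-5p had no value with a mean of at least 10 required, and DESeq2 gave no p for miR-107. Depth limits miR-103a-2-5p most, at 1 to 44 reads per library.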
